A study of Mus musculus with 2 samples.

Results

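The numbered mouse zinc finger genes Zfp500 to Zfp999 were described in E14 mouse embryonic stem cells with and without knockdown of Sin3a. A gene was a member if its only symbol in the platform annotation was Zfp followed by a three-digit number of 500 or above. This gave 165 members, measured by 295 probe sets, among 18193 genes with a single symbol. Where a member had several probe sets, the one with the highest mean log2 signal stood for it. At the edge of the number range, Zfp493 lay just outside with signals of 204 and 188 in shCtrl and shSin3a-1, and Zfp503 lay just inside with 22.8 and 8.40.

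The cells of both groups were E14, an established line grown with serum and leukemia inhibitory factor on gelatin, with no feeder layer stated. Per the labels, one group received lentivirus with a non-targeting shRNA (shCtrl) and the other lentivirus with shSin3a-1, a single shRNA against Sin3a; both were selected with puromycin. Total RNA was read on 1 Affymetrix 3' expression array per group. There were therefore no replicates, no difference below has a replicate check, and none was tested.

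Zfp genes encode proteins with C2H2 zinc fingers, small folds held by a zinc ion, which read DNA when arranged in tandem. Many also carry a KRAB domain, which recruits the co-repressor TRIM28 and with it the histone methyltransferase SETDB1, so that the target becomes packed as heterochromatin. KRAB zinc finger genes arose largely by local duplication, lie in clusters of close relatives, and in embryonic stem cells are best known for silencing retroelements and protecting imprints. Other numbered members have unrelated roles in the ribosome, RNA processing or development. Sin3a encodes the scaffold of a histone deacetylase complex that DNA-binding proteins recruit to promoters.

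Sin3a itself had signals of 3072 and 534 in shCtrl and shSin3a-1, 18.8% of the control level after centring. All 7 pluripotency markers, among them Pou5f1, Nanog and Zfp42, were kept and within 2-fold. Of 10 fibroblast markers, 5 were under the floor on both arrays (Col1a1, Col3a1, Postn, Dcn and Lum) and 3 were lower at 2-fold or more. Of those 3, Pdgfrb (203 and 89.0) and Loxl1 (181 and 80.0) were kept through shCtrl alone. The summed signal of the 10 was 1031 and 560. Of 7 primitive endoderm markers, 6 were kept, all of them above 0 with a median of 1.03, and 3 were higher at 2-fold or more. Sox17 (41.1 and 221, with shCtrl at the floor), Pdgfra (58.5 and 131) and Gata6 (114 and 157) were kept through shSin3a-1 alone. The median and the count above 0 thus rest in part on genes that passed through the array where they are high. The summed signal of the 7 was 4118 and 5034, and 607 and 1503 without Sparc (3510 and 3531). The summed signal of the trophectoderm markers, 1569 and 912, came mostly from Krt8 and Krt18, while Cdx2 had 8.61 and 70.0 and Eomes 83.5 and 89.0, both short of the filter. That of the neuroectoderm markers was 459 and 317, with Sox1 and Nes lower and Pax6, which did not reach the filter, at 77.2 and 94.9. The part of such cells in the differences below was not tested, and in bulk RNA more cells with a transcript cannot be told apart from more transcript per cell.

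Values are MAS5 signals as deposited. Log2 differences are shSin3a-1 minus shCtrl after both arrays were centred on their medians, which adds 0.11 to every difference compared with the deposited scaling. A gene was kept when the brighter of its values was at or above the 60th percentile on that array, a signal of 131 in shCtrl or 126 in shSin3a-1. Values under the 40th percentile (46.8 and 41.7) were set to it.

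Most zinc finger genes of this range were present at modest levels. Of the 165 members 123 were kept, or 74.5%, against 53.8% of all genes. The median signal of the kept members was 369 in shCtrl and 411 in shSin3a-1, against 807 and 798 for all kept genes. Only 8 kept members reached the 90th percentile, while 58 lay between the 60th and the 75th.

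**Figure D1:**
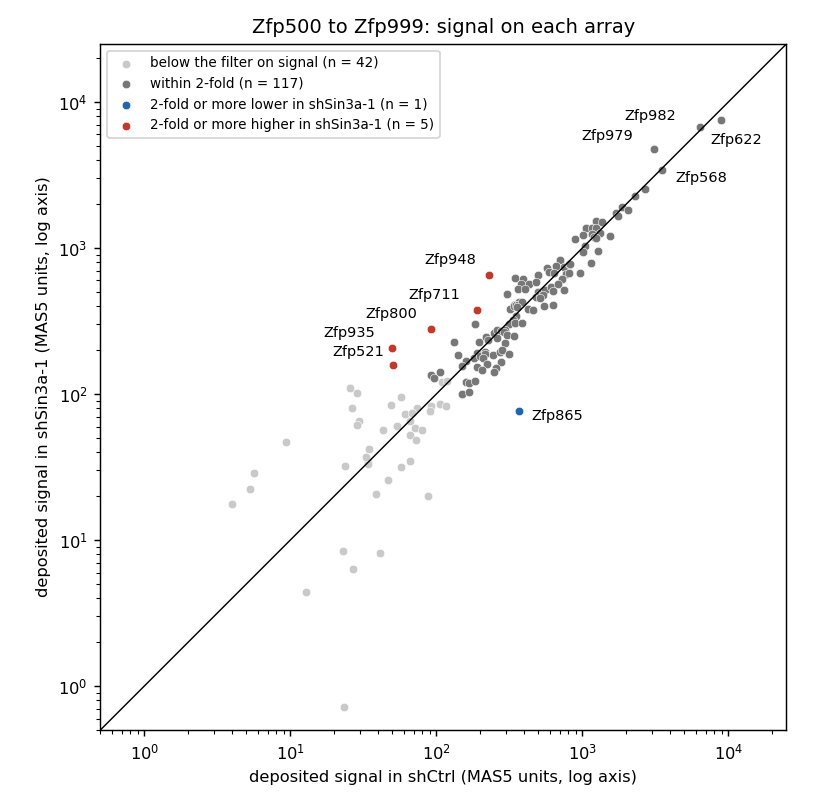
Deposited MAS5 signal of each of the 165 members in shCtrl (x axis) and shSin3a-1 (y axis), both on log axes, with the line of equal signal. Folds were counted after centring, while the plotted signals are not centred. The 117 members within 2-fold follow the line, and the 5 members higher at 2-fold or more lie above it. Zfp865 lies below it, and the 42 members under the filter scatter widely.

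The brightest members include genes of ribosome, pluripotency and silencing factors, and by brightest probe set most had similar signals on both arrays. Zfp622, whose product acts in maturation of the large ribosomal subunit, had the highest signal of all members, with 8897 in shCtrl and 7495 in shSin3a-1 (log2 difference -0.14). Zfp982, reported to support the embryonic stem cell state, had 6454 and 6729 (0.17). Zfp568, a KRAB repressor of a placental Igf2 promoter, had 3535 and 3441 (0.07), and 319 and 452 (0.61) in its second kept probe set. The one bright member that stood off the rest was Zfp979, with 3096 and 4785, a log2 difference of 0.74 in its only probe set.

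The other members among the 10 brightest were Zfp638, Zfp936, Zfp871, Zfp715, Zfp961 and Zfp644. Over all 10 the log2 differences ran from -0.14 to 0.74, and none reached 2-fold. For 4 of the 10 (Zfp622, Zfp982, Zfp638 and Zfp644) the probe set carries a suffix that marks shared sequence. Part of its signal may therefore come from related transcripts. The brightest probe set without a suffix had 1670 and 1542 in Zfp622, and 555 and 504 in Zfp982.

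As a whole the family differed little between the arrays. Of the 123 kept members 117 were within 2-fold and 103 (83.7%) within 1.5-fold, the latter close to the 83.1% of all kept genes. Their median log2 difference was 0.07, with quartiles of -0.15 and 0.33, and all kept genes had a median of 0.07 with quartiles of -0.18 and 0.32. With the deposited scaling both medians were below 0, at -0.04 for the members and -0.03 for all genes. Above 0 lay 76 kept members after centring and 53 with the deposited scaling, so the side of 0 says little for members with small differences.

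At 2-fold or more, 5 members were higher in shSin3a-1 (4.07% of those kept) and 1 was lower (0.813%). Over all 9782 kept genes these shares were 2.43% higher and 2.01% lower, or 4.45% in either direction against 4.88% of the members. Dim genes passed 2-fold more often. Between the 60th and the 75th percentile 10.2% of all genes passed it, and 5 of 58 members (8.62%) did. Between the 75th and the 90th it was 3.17% of all genes and 1 of 57 members (1.75%), and above the 90th 0.965% of all genes and none of 8 members. The members' share past 2-fold was thus near or under the background in each range of signal. Of the members past 2-fold, Zfp935, Zfp521 and Zfp800 reached the filter in shSin3a-1 only, and Zfp865 in shCtrl only. They were kept through the array where they are high, and the same filter applied to all genes.

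**Figure D2:**
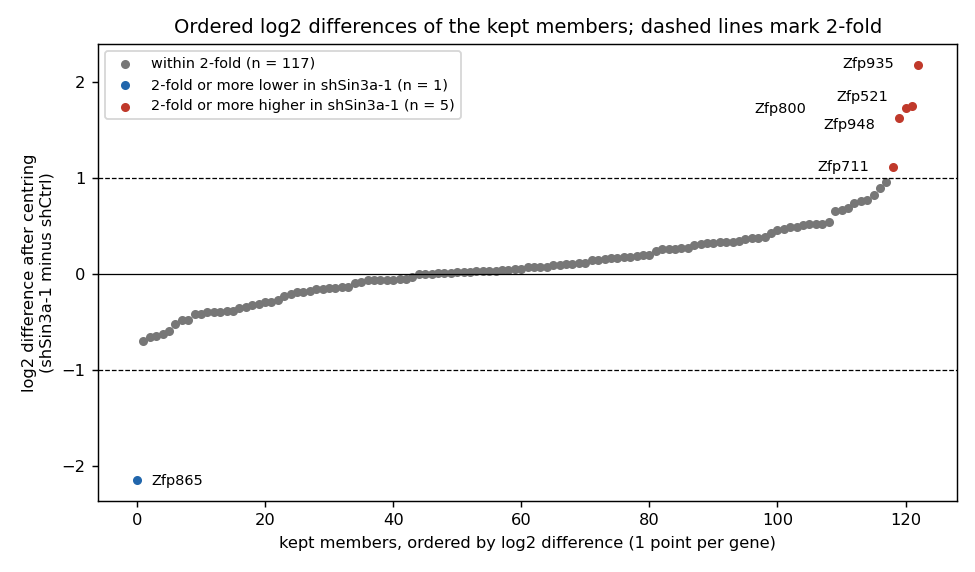
Log2 difference (shSin3a-1 minus shCtrl, after centring) of the 123 kept members in rising order, 1 point per gene, with dashed lines at 2-fold. The points run closely along 0, and 5 members (Zfp711, Zfp948, Zfp800, Zfp521 and Zfp935) lie above the upper line and Zfp865 below the lower one.

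Zfp935 had the highest difference. It had 49.7 in shCtrl and 208 in shSin3a-1, 4.52-fold higher (log2 difference 2.18). The shCtrl signal lay just over the floor, and with the floor at the 50th percentile the difference was 1.64. It has 1 probe set, with a suffix for shared sequence, so a related transcript could contribute.

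Zfp521, a regulator of blood and neural progenitors, was 3.34-fold higher, from 50.9 to 158 (1.74). Its second probe set had 53.9 and 62.0 (0.31) and did not reach the filter. In shCtrl both probe sets of Zfp521 thus lay just over the floor, and 1 of them reached the filter in shSin3a-1.

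Zfp800, whose human counterpart is described as a repressor of enteroendocrine fate, was 3.32-fold higher, with 91.4 and 281 (1.73). It was the most broadly measured of the 6, with 7 probe sets, and every one had a higher deposited signal in shSin3a-1. The 6 dimmer ones did not reach the filter. Of these, the brightest in shSin3a-1 had 58.8 and 110 (1.02), and another had 46.8 and 103, a lower bound of 1.25 with shCtrl at the floor.

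Zfp948 had the brightest signal among the higher members, 231 in shCtrl and 657 in shSin3a-1 (3.07-fold, 1.62). Its second probe set was under the floor on both arrays. Zfp711, an X-linked relative of Zfx whose human counterpart is mutated in intellectual disability, had 190 and 379 (2.16-fold, 1.11). It was just under 2-fold with the deposited scaling, at a log2 difference of 0.9993, and its second probe set was under the floor on both arrays.

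Zfp865 was the single lower member. Its brightest probe set had 369 in shCtrl and 77.1 in shSin3a-1, 22.6% of control (log2 difference -2.15). A second probe set did not show this, with 106 and 98.4 (0.0045), and the remaining pair was under the floor on both arrays, with lower signals in shSin3a-1 (20.4 and 2.81, and 27.7 and 2.13). The lower value of Zfp865 therefore rests on 1 of 4 probe sets.

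None of these 6 members had a second probe set that reached the filter. With probe sets averaged by gene, Zfp935 alone of the 6 was past 2-fold. The other 5 did not reach the filter, while Zfp606 and Zfp646 were higher and Zfp788 lower by that measure. Those means took in probe sets under the floor in shCtrl (Zfp606, 23.0 and 114, and Zfp646, 12.95 and 82.9) or shSin3a-1 (Zfp788, 73.6 and 2.45). The brightest probe sets of Zfp606, Zfp646 and Zfp788 were at 0.77, -0.21 and 0.04.

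**Figure D3:**
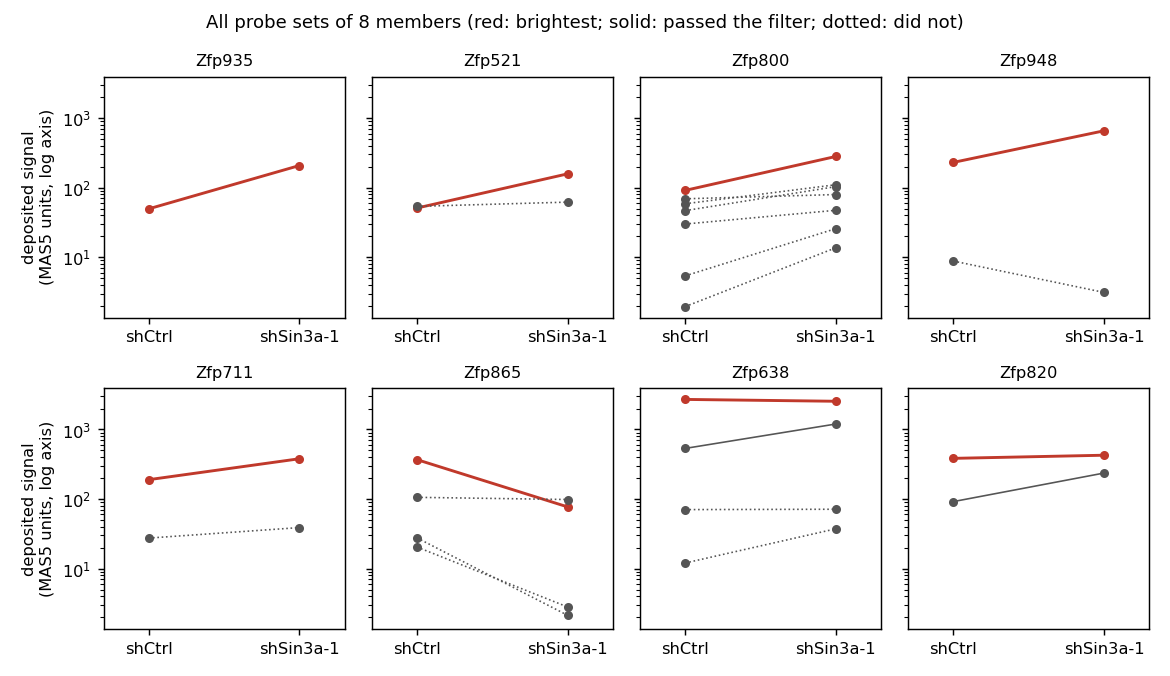
Deposited signal (log axis) of every probe set of 8 members in shCtrl and shSin3a-1, with the brightest probe set in red, solid lines for probe sets that passed the filter and dotted lines for those that did not. All 7 probe sets of Zfp800 have a higher deposited signal in shSin3a-1, some of them under the floor. The second brightest of Zfp865 is level, and in Zfp638 and Zfp820 a dimmer probe set is higher while the brightest is nearly level.

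Probe sets of 1 gene often disagreed in size. Among 37 members with 2 or more kept probe sets, the pooled SD of the log2 difference between probe sets of a gene was 0.35, and in 25 of the 37 all kept probe sets lay on the same side of 0. For 5 members a dimmer kept probe set passed 2-fold while the brightest did not, each time with a higher value in shSin3a-1. In Zfp638 the second probe set had 534 and 1198 (1.27), against 2705 and 2544 (0.02) in the brightest. In Zfp820 it had 91.8 and 236 (1.47), against 0.26 in the brightest. The other 3 were Zfp597 (1.27, against 0.65), Zfp655 (1.04, against 0.26) and Zfp941 (1.10, against 0.05).

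A wider group lay between 1.5-fold and 2-fold. At 1.5-fold or more 14 members were higher (11.4%, against 10.2% of all kept genes) and 6 were lower (4.88%, against 6.76%). Besides the 5 already named, the higher ones were Zfp995 (344 and 619, 0.96), Zfp944 (133 and 229, 0.90), Zfp954 (0.82), Zfp606 (0.77), Zfp507 (0.76), Zfp979 (0.74), Zfp763 (0.68), Zfp672 (0.66) and Zfp597 (0.65). Zfp944 had a second kept probe set with a nearly equal difference (0.91), and that of Zfp995 was smaller (0.47). The lower ones besides Zfp865 were Zfp940 (250 and 142, -0.70), Zfp580 (257 and 151, -0.66), Zfp827 (-0.64), Zfp956 (-0.63) and Zfp524 (-0.60).

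Genes that silence retroelements or imprinted genes showed no common direction. Zfp809, which silences retroviruses that use a proline tRNA primer, had 963 in shCtrl and 678 in shSin3a-1 (-0.40). Zfp932, a repressor of endogenous retroviruses, had 1050 and 1039 (0.09), and Zfp819, which acts on transposable elements in pluripotent cells, had 348 and 309 (-0.06). With Zfp568 this made 4 kept members of 5, all within 2-fold, with a median of 0.0035. Zfp708, a KRAB gene that targets a retroelement family, did not reach the filter (66.5 and 65.8). Of these genes Zfp809 thus differed most, and it has 1 probe set.

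The partners through which KRAB zinc fingers act were measured alongside. Of 20 genes of the TRIM28, SETDB1 and HP1 pathway and its relatives, 19 had a probe set of their own and all 19 were kept and within 2-fold. Trim28, the co-repressor, had 14228 and 11810 (-0.16), and Setdb1, which methylates histone H3 lysine 9, had 1486 and 1019 (-0.44). Above 0 lay 8 of the 19, and the median was -0.13, against 0.07 for all kept genes. The HP1 genes Cbx1 (-0.30) and Cbx5 (-0.43) and the Setdb1 partner Atf7ip (-0.35) were below 0. The value of Cbx3 (-0.67) came from a dim probe set with 160 and 93.0. At the other end, Pphln1, a subunit of the HUSH silencing complex, had 677 and 1076 (0.78).

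Ribosome and RNA factors were bright and similar. Besides Zfp622, Zfp598, a ubiquitin ligase that senses collided ribosomes, had 1235 and 1166 (0.03), and Zfp593, a factor of the large subunit, had 706 and 832 (0.35). As a mean over probe sets Zfp593 was at -0.20. Zfp830, linked to splicing, had 1234 and 1538 (0.43), and Zfp638, which tethers the HUSH complex to unintegrated retroviral DNA, is given above with its disagreeing probe sets. By brightest probe sets all 5 measured members of this list were within 2-fold. Zfp706 was not analysed here, since no probe set names it alone.

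The 3 partners of the chromatin reader ZMYND8 stayed close to each other. Zfp532 had 1323 and 1263 (0.04), Zfp592 had 303 and 252 (-0.15), and Zfp687 had 539 and 479 (-0.06). The NET family genes Zfp503 and Zfp703, regulators of development, were under the floor on both arrays, with no signal above 22.8.

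Of 11 measured developmental and chromatin factors 7 were kept, and Zfp521 and Zfp711, given above, were the members at 2-fold. Zfp644, a partner of the G9a methyltransferases, had 1766 and 1665 (0.02), and Zfp516, a regulator of brown fat, had 539 and 510 (0.03). Zfp652, a partner of the ETO co-repressors, was at -0.13, and Zfp746, a repressor studied in Parkinson disease, at -0.35. Zfp827, which brings the NuRD complex to telomeres, had 316 and 187 (-0.64), and its dimmer probe set, under the filter, was lower too (-0.49). Zfp536, Zfp541, Zfp608 and Zfp750 did not reach the filter. Of these, Zfp750, a factor of epidermal differentiation, had 28.7 and 102, and Zfp541, a spermatocyte gene, was under the floor on both arrays. Zfp609 was not analysed here, since no probe set names it alone.

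In all, 42 members did not reach the filter, and 13 of them were under the floor on both arrays. Their signals reached at most 123. Among them Zfp605 (25.8 and 110) and Zfp750 had the largest differences, at least 2.53-fold and at least 2.34-fold higher with shCtrl at the floor. On the lower side Zfp526 had 87.2 and 19.9. At this signal the deposited values spread widely in both directions, as the points of dim members in the plot of signals on both arrays show.

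Grouped by the number in the name, the genes from 900 upwards lay somewhat higher than the rest. This split was chosen after the values were seen, and the number is a name, not a measure of kinship. The 31 kept members numbered 900 and above had a median of 0.17, with quartiles of 0.02 and 0.52, and 24 lay above 0. The 92 kept members numbered below 900 had a median of 0.03, with quartiles of -0.19 and 0.27, and 52 lay above 0. With the deposited scaling the medians were 0.06 and -0.08. The quartile ranges overlap, and at 2-fold the counts were 2 higher and none lower against 3 higher and 1 lower. The median log2 signals of both sets were close, at 8.61 and 8.69.

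**Figure D4:**
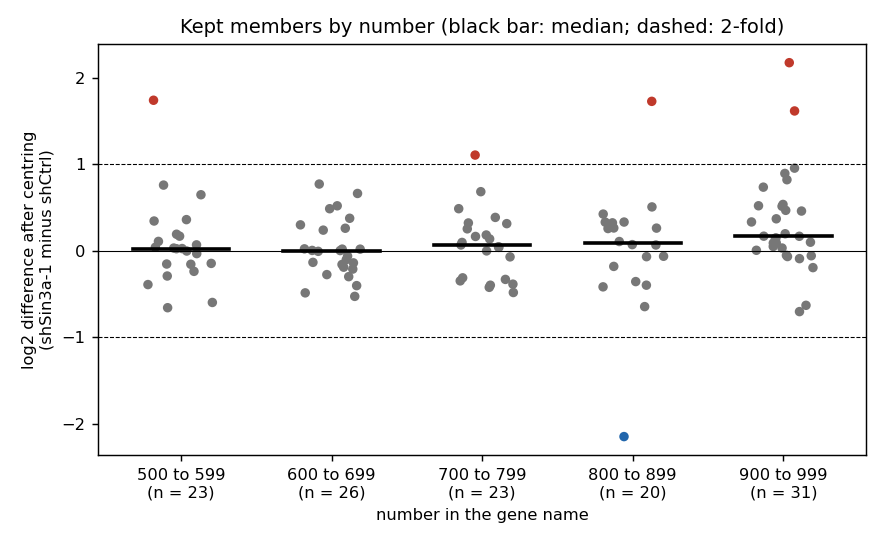
Log2 difference (shSin3a-1 minus shCtrl, after centring) of the kept members grouped by the number in the gene name, 1 point per gene with horizontal jitter; red marks 2-fold or more higher, blue 2-fold or more lower, and black bars are medians. The medians run from near 0 to 0.17, with the last group highest, and the groups overlap widely.

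Genes with lower numbers served as the nearest comparison. Of 140 genes named Zfp1 to Zfp499 by the same rule, 111 were kept, and their median was 0.07 with quartiles of -0.16 and 0.25. At 2-fold 1 gene was higher, Zfp458 (57.0 and 159, 1.59), and none was lower, a share of 0.901% against 4.88% in Zfp500 to Zfp999. With 1 array per group that difference in share was not tested.

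Many members are neighbours in the genome. In the gene order of the RefSeq table of GRCm38.p6, 163 of the 165 members are placed among the protein-coding genes, and 60 of them formed 23 runs in which no other protein-coding gene lay between them. Of the 19 runs with 2 or more kept members, 4 had all of these above 0, 5 had all below and 10 were mixed. Of 25 adjacent kept pairs 15 lay on the same side of 0, and 18 did with the deposited scaling.

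The run Zfp524, Zfp865, Zfp784 and Zfp580 held 3 of the 6 members lowest at 1.5-fold or more. Zfp524 had 168 and 103 (-0.60), Zfp865 had 369 and 77.1 in its brightest probe set (-2.15), and Zfp580 had 257 and 151 (-0.66), while Zfp784 did not reach the filter. All 3 measured genes of that run were thus lower, with Zfp865 apart from its neighbours. On the other side, all 3 members of the run Zfp944, Zfp758 and Zfp946 were above 0, at 0.90, 0.31 and 0.33. In the run Zfp820, Zfp995, Zfp942 and Zfp943 the differences were 0.26, 0.96, -0.06 and 0.03. Zfp935 stood beside Zfp934, which had 571 and 733 (0.47) in its brightest probe set and 219 and 170 (-0.25) in its second kept one.

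**Figure D5:**
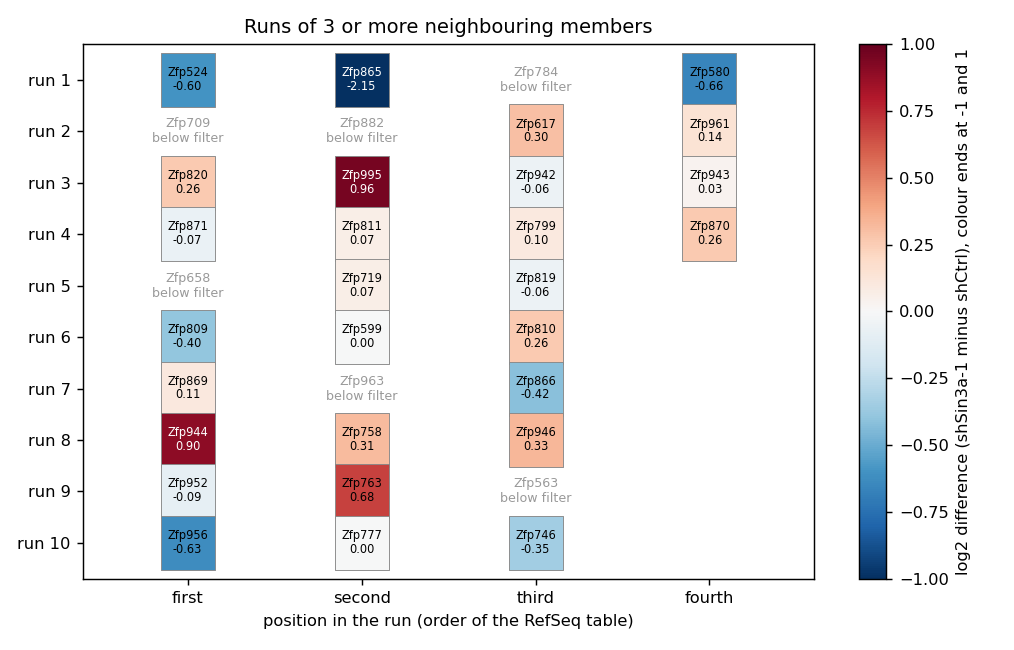
Runs of 3 or more neighbouring members in the order of the RefSeq table, with 1 square per kept member, its log2 difference (shSin3a-1 minus shCtrl, after centring) printed inside and shown as colour from blue (lower) to red (higher). Zfp524, Zfp865 and Zfp580 in run 1 are all lower, and Zfp944, Zfp758 and Zfp946 in run 8 are all higher.

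Promoter sequences were taken from RefSeq (GRCm38.p6), from 250 bases before to 50 after the start site, and 139 of the 165 members matched, with 169 promoters. The E-box CACGTG was searched because MAX binds it with MYC or with MXD proteins, and MXD proteins recruit SIN3. The word reads the same on both strands, and no other motif was searched. It stood in 14 of 169 member promoters (8.28%), against 7.15% of all 32851 promoters in the table.

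The E-box promoters are shown because 7 of the 14 belong to one set of relatives on chromosome 17, several of them in the runs above. Each line gives 40 bases, 5′ to 3′ on the gene's own strand, with the E-box in capitals.
Zfp820: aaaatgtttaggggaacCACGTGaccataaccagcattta
Zfp994: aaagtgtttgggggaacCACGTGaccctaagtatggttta
Zfp942: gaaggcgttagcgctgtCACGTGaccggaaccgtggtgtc
Zfp943: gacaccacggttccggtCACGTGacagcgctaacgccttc
Zfp944: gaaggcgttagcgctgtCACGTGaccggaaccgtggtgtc
Zfp758: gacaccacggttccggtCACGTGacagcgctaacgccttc
Zfp946: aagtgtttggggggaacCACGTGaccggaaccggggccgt
Zfp507: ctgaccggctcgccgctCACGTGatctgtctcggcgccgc

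Zfp942 (minus strand) and Zfp943 (plus strand) lie on either side of the stretch chr17:21962496-21962535 and share 1 E-box, which lies 54 and 46 bases upstream of their start sites. Zfp944 (minus) and Zfp758 (plus) are arranged in the same way at chr17:22361407-22361446, with the E-box 29 and 39 bases upstream. The 40 bases of the first pair are identical to those of the second. The pairs had different values. The first gave -0.06 for Zfp942 (428 and 382) and 0.03 for Zfp943 (317 and 301), and the second gave 0.90 for Zfp944 (133 and 229) and 0.31 for Zfp758 (197 and 227). The log2 differences of these genes ran from -0.06 to 0.90. Only 40 bases were compared, with 1 array per group, and the part of the sequence in these values was not tested.

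The windows of Zfp820 (chr17:21845856-21845895, minus strand) and Zfp994 (chr17:22225752-22225791, minus) differ at 8 of 40 bases. That of Zfp946 is at chr17:22424175-22424214 (plus), 10 bases upstream of the start site. Of these 7 relatives 6 were kept and 5 lay above 0, with a median of 0.29 (0.18 with the deposited scaling, when 4 lay above 0). Zfp507 (chr7:35802982-35803021, minus), outside the set, had the E-box 15 bases upstream and signals of 390 and 613 (0.76). It had the highest difference of the kept E-box members outside the set. The others were Zfp512 (0.19), Zfp819 (-0.06), Zfp871 (-0.07) and Zfp619 (-0.19).

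Over all members with a promoter, the 11 kept ones with an E-box had a median of 0.19 and 7 lay above 0. The 91 kept ones without it had a median of 0.07 and 56 lay above 0. These medians were 0.08 and -0.04 with the deposited scaling. Of the 6 members past 2-fold, 3 had a promoter in the table (Zfp800, Zfp935 and Zfp948), and none of these promoters held the word.

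The members' promoters held more CpG sites than those of the promoter table as a whole. A member had a median of 16 CpG sites per promoter, against 7 over all 27025 genes of the table. That reference was not limited to genes on the array or to kept genes, and no closer one was used. Whether CpG number sets these genes apart from like genes was therefore not tested. Kept members numbered 900 and above had a median of 8.25 and those below 900 one of 17.8. The 49 kept members with fewer than 16 sites had a median log2 difference of 0.10, with 35 above 0. The 53 with 16 or more had one of 0.0053, with 28 above 0. Both medians were below 0 with the deposited scaling, at -0.0083 and -0.10. Across the 102 kept members with a promoter, Pearson's r between CpG sites and log2 difference was -0.18 and Spearman's rho was -0.23. This is a description across genes that share both arrays and, in part, recent ancestry.

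The promoters of Zfp935 and Zfp800 are printed because both genes were higher in shSin3a-1 and the windows shown differ in CpG, which is in capitals. That of Zfp935, at chr13:62466763-62467062 on the minus strand, has 8 CpG sites and a GC content of 49.3%. The one of Zfp800, at chr6:28261875-28262174 on the minus strand, has 41 CpG sites and 77.3%; the table holds another promoter of Zfp800, with 14 sites and 49.7%, and which one is in use was not measured.
Zfp935: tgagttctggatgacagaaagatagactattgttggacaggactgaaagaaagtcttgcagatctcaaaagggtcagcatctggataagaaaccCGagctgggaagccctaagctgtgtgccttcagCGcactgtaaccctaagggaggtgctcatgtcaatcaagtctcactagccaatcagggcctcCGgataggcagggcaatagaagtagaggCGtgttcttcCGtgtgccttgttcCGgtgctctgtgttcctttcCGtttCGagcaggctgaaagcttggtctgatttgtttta
Zfp800: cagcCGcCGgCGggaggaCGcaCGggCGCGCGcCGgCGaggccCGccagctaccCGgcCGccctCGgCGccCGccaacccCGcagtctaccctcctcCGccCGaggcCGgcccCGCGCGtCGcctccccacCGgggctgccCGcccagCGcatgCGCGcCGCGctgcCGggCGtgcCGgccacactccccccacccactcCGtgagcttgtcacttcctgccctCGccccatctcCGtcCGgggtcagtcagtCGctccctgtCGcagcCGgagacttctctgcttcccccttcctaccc

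The promoter of Zfp948 has 10 CpG sites.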

How the data were processed

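Per the submitters' processing notes, MAS5 and Affymetrix Expression Console were used; those notes, as used here, give no version. The deposited file holds linear intensity values per probe set, without detection calls. Because MAS5 takes off mismatch signals, dim values spread widely. The array held 45101 probe sets, of which 64 were controls, left out here. Probe sets were named from the platform annotation, leaving out those with no symbol or more than 1. Symbols were checked by Entrez ID through the RefSeq table of GRCm38.p6; all 295 member probe sets matched.

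Deposited signals were taken to log2. The log2 medians were 6.17 and 6.06, over 0.1 apart, so both arrays were centred on their medians. The filter, floor and probe set choice are given in the report. Each group had 1 array, so no p-value was computed; members were counted at 2-fold and set beside all 9782 kept genes. The number of arrays limits the precision. The members, lists and rules were chosen with earlier results of these data known. Members named are those at 2-fold or more, the 10 brightest and all in the role lists; others were chosen after their values were seen. A split by KRAB domain and finger number was not made, since protein sequences were not used here. Python 3.11.15, pandas 2.3.3 and numpy 2.4.6 were used, and the counting was tested on simulated data. The alternatives were other scalings, filters, floors and folds, an offset, and other choices of probe set.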

Additional observations from a re-analysis of the deposited data

How the results depend on the processing

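No paired analysis was possible because each group had 1 array. The median of the kept members, 0.07 after centring, was -0.041 with the deposited scaling, -0.048 when scaled on the 75th percentile, -0.052 with quantile and -0.038 with loess scaling, and the median of all kept genes turned below 0 in the same 4 settings (-0.03 to -0.04). Counts at 2-fold were 5 higher and 1 lower; they moved by over 1.5 times with the filter at the 75th percentile (1 higher, Zfp948, and 0 lower, among 65 kept members), with the mean of all probe sets (3 higher) and by construction at 1.5-fold (14 higher, 6 lower). In the other settings 4 to 7 members were higher and 1 lower. Zfp711 fell under 2-fold when scaled as deposited (0.9993) or on the 75th percentile (0.99) and with an offset of 32 before log2 (0.97). Zfp638 passed it without suffixed probe sets (1.27). In the mean of probe sets Zfp638 was at 0.79, Zfp715 at 0.92 and Zfp593 at -0.20. Probe sets entered these means without the floor. That of Zfp715 took in a probe set with 18.2 and 54.8. That of Zfp638 took in one with 12.0 and 37.3 beside the one at 1.27, and that of Zfp593 a kept one at -0.75. Why probe sets of a gene differ was not tested. Of 334 values of 29 named members 330 kept their side of 2-fold and 8 moved by the SD between probe sets or more. Values under the other filters and the 30th percentile floor repeat the main ones by construction, so their agreement carries no information. Settings in which a member fell below the filter were not counted. With the mean of all probe sets this left out Zfp521, Zfp711, Zfp800, Zfp865 and Zfp948, which were past 2-fold in the main setting. Signal near background limits the 58 kept members under the 75th percentile.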
